A study of Rattus norvegicus with 12 samples.

Results

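Primary rat inner medullary collecting duct cells held at 640 mOsm throughout were compared after 6 and after 5 days in culture, to see what a further day changes when osmolality stays the same. The comparison took the 6 of the series' 12 samples whose titles give 640 mOsm, 3 at 48 h and 3 at 24 h. All cells came from kidneys of male SD rats aged 7 weeks, were grown for 4 days at 640 mOsm, and were then kept for 1 or 2 days more at 640 mOsm. The other 6 samples were moved to 300 mOsm for those same 24 h or 48 h and are used here only beside the comparison. Short codes in the sample descriptions read 600 for the 48 h group at 640 mOsm, whereas titles, treatment entries and the stated design all read 640, which was used. Whether the 3 samples in each group stem from different rats or dishes is not stated, so p-values cover only the spread among these samples, which could be technical. No date of hybridisation was given either, so culture time and any such batch cannot be told apart.

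The inner medullary collecting duct is the last segment of the nephron. Its principal cells take up water through aquaporin-2 under vasopressin and live in a hyperosmotic interstitium, against which they accumulate organic osmolytes under the transcription factor Nfat5. The osmolality of 640 mOsm keeps part of that environment in culture. Primary cultures from kidney tissue can also carry stromal cells, such as fibroblasts, and macrophages, and epithelial cells in culture commonly divide less as they fill the dish.

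Affymetrix Rat Gene 1.0 ST arrays hybridised with labelled cDNA from total RNA gave log2 values for 14506 named genes. The array medians of these genes were 7.43, 7.57 and 6.90 at 24 h and 6.81, 6.87 and 6.97 at 48 h, so the third 24 h array lay with the 48 h arrays. The mean fell by 0.42, from 7.30 ± 0.36 to 6.88 ± 0.08 (SD, n = 3 each; exact two-sided permutation test p = 0.2, where 3 arrays against 3 can give no p below 0.10). Each array was therefore centred on its median, and every level below is the log2 difference from the median gene of that array. A gene's level can be followed from array to array, but levels of different genes are not compared, because probe sets differ in brightness. The arrays were few, and their number limits the precision.

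The labelled cell type was checked only roughly, by where markers lay relative to each array's median, which the brightness of a probe set also sets. Aqp2, the vasopressin-regulated water channel, was at 4.34, 2.76 and 3.85 at 24 h and at 4.78, 4.54 and 4.56 at 48 h. Of the 23 principal cell and vasopressin response genes measured, 14 were above the array median on all 6 arrays and 6 were below it on all 6. The 18 proximal tubule markers were all below the array median on all 6 arrays. Of 18 measured fibroblast and pericyte markers, 5 were above the median on all 6 arrays and 9 were below it on all 6. Of 23 macrophage and leukocyte markers, 2 were above it and 16 below it on all 6.

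A further day at 640 mOsm raised 20 genes and lowered none (limma over all 12 arrays, Benjamini-Hochberg adjusted p under 0.05). These are 0.138% of the 14506 genes. At an unadjusted p under 0.05, 530 genes (3.65%) were higher and 424 (2.92%) lower. The 20 rises ran from 0.91 to 1.72 on the log2 scale with standard errors of 0.16 to 0.27, and 15 of them were at least 2-fold. In each of the 20 the lowest 48 h array lay above the highest 24 h array, by 0.525 or more. The 20 were called on these same arrays, so this separation is a description and no further support. Over all genes, 718 (4.95%) had all 48 h arrays above all 24 h arrays and 672 (4.63%) had all of them below. Leaving out 1 of the 6 arrays at a time gave between 6 and 15 calls, all rises, with 6 to 12 of the 20 among them. There were 6 calls without the first 48 h array, 9 without the second and 10 without the second 24 h array, all among the 20. Without the third 48 h array 10 of 15 calls were among the 20, and without the first 24 h array 10 of 12. Without the third 24 h array, the one with the low median, 12 of 13 were. On the values as deposited, without centring, no gene was called, and 4077 (28.1%) had an unadjusted p under 0.05. With arrays weighted by their spread 986 genes were called, 485 rises and 501 falls, and all 20 were among them.

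**Figure D1:**
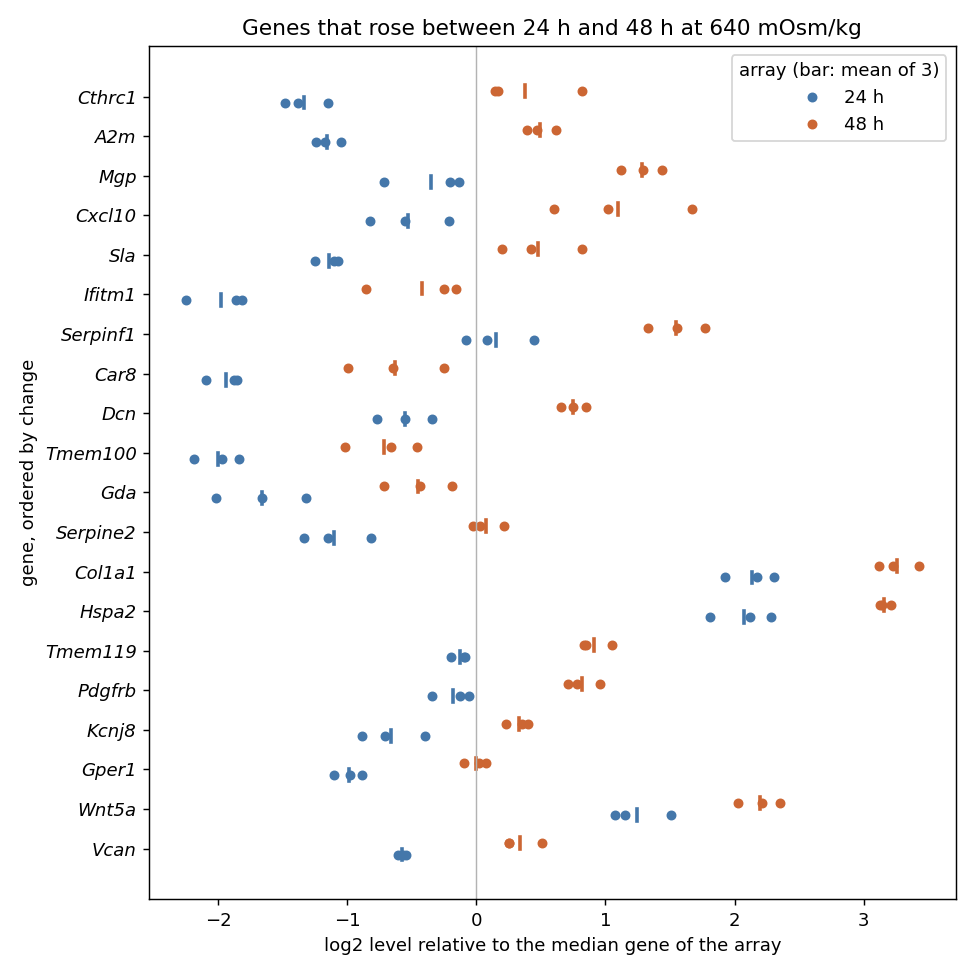
Level of each of the 20 called genes on each of the 6 arrays at 640 mOsm, as log2 relative to the array's median gene; blue points are 24 h arrays, orange points 48 h arrays, and bars the mean of 3. In every gene the 3 arrays at 48 h lie above the 3 at 24 h, by 0.525 or more, on the same arrays that were used to call it.

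Several of the called rises were in secreted and matrix proteins, described first. Cthrc1, the gene with the largest rise, which encodes a protein secreted by activated fibroblasts, was at -1.49, -1.38 and -1.15 at 24 h and at 0.14, 0.82 and 0.17 at 48 h. That is a rise of 1.72 ± 0.20 (SE), or 3.28-fold (limma adjusted p = 0.00344). A2m, a broad inhibitor of proteases and an acute phase protein in the rat, went from -1.24, -1.17 and -1.05 to 0.39, 0.62 and 0.47, which is 3.13-fold and had the smallest adjusted p of the 20 (limma, 0.00151). Its arrays within each time lay closer together than those of Cthrc1, and the times were separated by 1.44. Mgp, an inhibitor of calcification in vessels and cartilage, was at -0.14, -0.72 and -0.21 at 24 h and at 1.44, 1.29 and 1.12 at 48 h, a rise of 1.64 ± 0.22 (SE; limma adjusted p = 0.00459). Serpinf1 encodes pigment epithelium-derived factor, a secreted serpin that inhibits angiogenesis. It stood at 0.08, -0.08 and 0.44 at 24 h and at 1.77, 1.33 and 1.55 at 48 h (2.64-fold; limma adjusted p = 0.00474).

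Dcn encodes decorin, a small proteoglycan that binds collagen fibrils. Its levels were -0.55, -0.77 and -0.34 at 24 h and 0.66, 0.75 and 0.85 at 48 h, so the 48 h arrays were tightly grouped and the rise was 1.31 ± 0.17 (SE; limma adjusted p = 0.00386). Col1a1, a chain of collagen I, went from 2.30, 1.93 and 2.17 to 3.43, 3.12 and 3.23, with arrays within each time closer to each other than to the other time. Its rise was 1.13 ± 0.20 (SE; limma adjusted p = 0.0387). Vcan, the large proteoglycan versican, rose by 0.91 and Pdgfrb, the PDGF receptor of pericytes and fibroblasts, by 0.99. Serpine2, which encodes protease nexin-1, rose by 1.18, Wnt5a, a noncanonical Wnt ligand, by 0.95, and Kcnj8, the pore of a potassium channel of pericytes and smooth muscle, by 0.99. The limma adjusted p was 0.0363 for Pdgfrb and 0.0387 for the other 4. Without the third 24 h array Dcn, Serpine2 and Kcnj8 stayed called (limma adjusted p = 0.00578, 0.0314 and 0.0353). Col1a1, Vcan, Pdgfrb and Wnt5a did not (limma adjusted p = 0.107, 0.130, 0.0562 and 0.132), with changes of 1.145, 0.895, 1.052 and 0.909.

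The other called genes act in signalling, interferon response and metabolism, and some rose as far as those above. Sla, an adaptor that dampens signalling by lymphocyte antigen receptors, was at -1.10, -1.25 and -1.07 at 24 h and at 0.20, 0.82 and 0.43 at 48 h (3.07-fold; limma adjusted p = 0.00377). Ifitm1, an interferon-induced membrane protein that was not in the interferon list used below, moved from -1.86, -2.25 and -1.81 to -0.16, -0.25 and -0.85 (2.94-fold; limma adjusted p = 0.00386). The third of its 48 h arrays was the lowest and still 0.96 above the highest 24 h array. Car8, a carbonic anhydrase relative without the enzyme's activity, rose by 1.31 and Tmem100, a membrane protein of the BMP and ALK1 pathway in endothelium, by 1.29 (limma adjusted p = 0.00613 and 0.00474). Hspa2, a member of the HSP70 chaperones, went from 2.12, 1.81 and 2.29 to 3.21, 3.14 and 3.13 and was the only one of 19 chaperone genes called (limma adjusted p = 0.0387). Gda, which deaminates guanine, rose by 1.22, Tmem119, a membrane protein of bone-forming cells and microglia, by 1.04, and Gper1, a G protein-coupled receptor for estrogen, by 0.99, each at a limma adjusted p of 0.0387. Without the third 24 h array Gda stayed called, and Hspa2, Tmem119 and Gper1 did not (limma adjusted p = 0.0250, 0.0502, 0.112 and 0.122).

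The lists of genes behind these examples can be described by their counts and medians, beside a median change of 0.002 over all genes, of which 50.3% were higher at 48 h. The lists were chosen with results of these arrays known and were not tested. Of 22 measured extracellular matrix genes, 21 were higher at 48 h, 3 of them called (Col1a1, Dcn and Vcan), with a median change of 0.45. Of 18 fibroblast and pericyte markers, 15 were higher, 3 of them called (Pdgfrb, Dcn and Col1a1), with a median of 0.73. Dcn stayed called whichever 1 of the 6 arrays was left out, and Col1a1, Vcan and Pdgfrb lost their call in each case. Changes of the 18 markers ran from -0.51 to 1.31. In 13 of them all 48 h arrays lay above all 24 h arrays and in 1 all lay below, against 4.95% and 4.63% of all genes. The mean level of the 18 markers was -0.78, -1.03 and -0.81 on the 24 h arrays and -0.13, -0.26 and -0.28 on the 48 h arrays, so the times did not overlap. Thy1, Rgs5, Col3a1 and Fbn1, chosen after their values were seen, had changes of 1.30, 1.22, 1.14 and 1.09 without a call (limma adjusted p = 0.215, 0.134, 0.212 and 0.134). In RNA from a whole culture, more cells of a type and more of these RNAs per cell cannot be told apart.

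Of the 20 called genes, 4 were in the matrix or fibroblast lists, 8 were in any of the 40 lists, and 6 lists held a call. The share of all genes that these lists hold was not computed, so whether these counts are many or few cannot be said. Beside the 20 rises the macrophage and leukocyte markers also stood higher. Of 23 measured, 20 were higher, none was called, and the median change was 0.51. Their mean level was -1.42, -1.32 and -1.31 on the 24 h arrays and -0.89, -0.73 and -1.02 on the 48 h arrays. Csf1r, the receptor that macrophages need to survive, was at -0.92, -0.87 and -0.80 at 24 h and at -0.26, -0.11 and 0.06 at 48 h (change 0.76; limma adjusted p = 0.101). C1qc, a chain of complement C1q that macrophages make, changed by 1.05 (limma adjusted p = 0.279). Of 12 complement genes, 10 were higher, with a median of 0.50. Endothelial markers differed little, with 11 of 16 higher and a median of 0.10. The part of stromal cells and macrophages in the 20 rises was not tested.

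**Figure D2:**
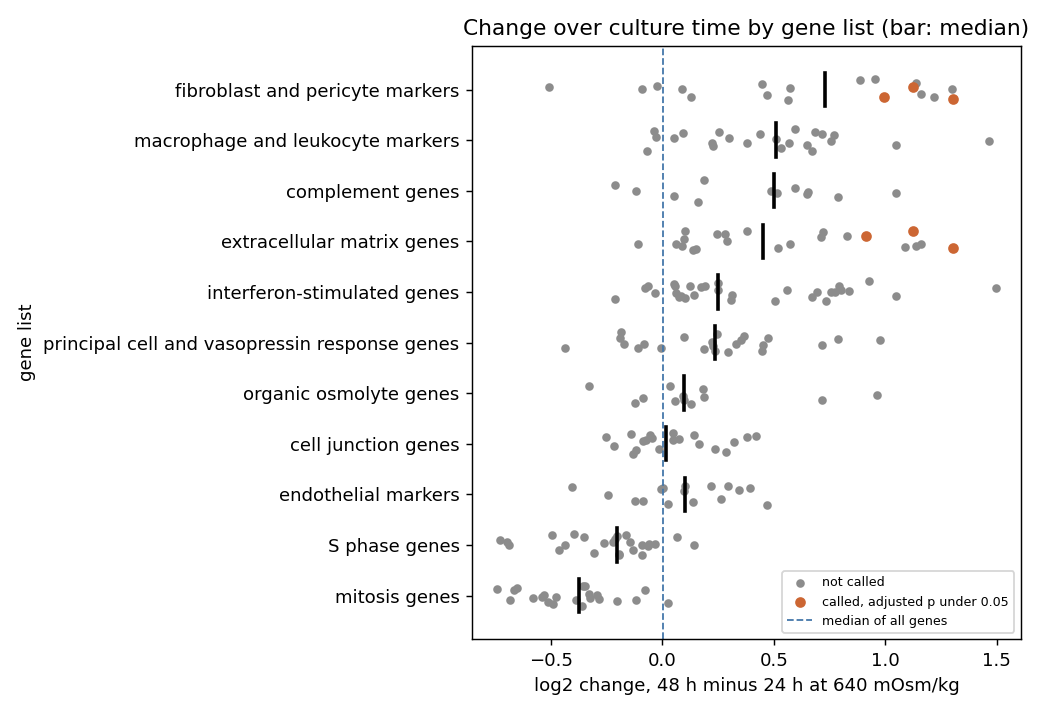
Change from 24 h to 48 h at 640 mOsm of every measured gene in 11 gene lists, on the log2 scale of centred arrays; each point is a gene, orange where it was called, the bar is the list's median, and the dashed line the median of all genes. Medians run from 0.73 for fibroblast and pericyte markers to -0.38 for mitosis genes.

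Cell cycle genes stood lower after the further day, none of them at an adjusted p under 0.05. Of 22 measured mitosis genes, 21 were lower at 48 h, with a median change of -0.38. In 10 of the 22 all 48 h arrays lay below all 24 h arrays, against 4.63% of all genes. The mean level of the 22 was 0.21, -0.08 and 0.08 on the 24 h arrays and -0.50, -0.27 and -0.25 on the 48 h arrays. Ndc80 and Nuf2 encode partners in the complex that ties kinetochores to spindle microtubules. Ndc80 was at 0.51, 0.30 and -0.03 at 24 h and at -0.76, -0.29 and -0.40 at 48 h (change -0.74; limma adjusted p = 0.474), and Nuf2 changed by -0.69 (limma adjusted p = 0.505), or by -0.42 without the first 48 h array. Of 25 S phase genes, 23 were lower, with a median of -0.21. Tyms, which makes thymidylate for DNA synthesis, changed by -0.69 and Cdc6, which loads the replicative helicase, by -0.73 (limma adjusted p = 0.374 and 0.429). The named genes that came nearest to a call among the falls, chosen after their values were seen, were Fst and Nrg1. Fst encodes follistatin, which binds activins, and was at 2.34, 2.34 and 2.39 at 24 h and at 1.51, 1.40 and 1.91 at 48 h (change -0.75; limma adjusted p = 0.212). Nrg1, a ligand of ErbB receptors, changed by -0.85 (limma adjusted p = 0.248).

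Genes of the collecting duct's own work were not called. Of 23 principal cell and vasopressin response genes, 16 were higher at 48 h and none was called, with a median change of 0.23. The change of Aqp2 was 0.98 ± 0.33 (SE; limma adjusted p = 0.526). Its 24 h arrays ran over a wide range and its 48 h arrays over a narrow one, with 0.20 between the highest of the first and the lowest of the second. Aqp3, the water channel of the basolateral side, was at 2.04, 1.96 and 2.21 at 24 h and at 3.28, 2.42 and 2.65 at 48 h (change 0.72; limma adjusted p = 0.555). Avpr2, the vasopressin receptor, changed by 0.79 (limma adjusted p = 0.413) and Slc14a2, the urea transporter, by 0.45 (limma adjusted p = 0.911). The arrays of Slc14a2 overlapped between times. Single arrays carried much of these values: without the second 24 h array the changes of Aqp2 and Avpr2 were 0.53 and 0.49, without the first 48 h array that of Aqp3 was 0.47, and without the third 24 h array that of Slc14a2 was 0.14.

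Of 12 osmolyte genes, 9 were higher and none was called, with a median of 0.10. Akr1b1, the aldose reductase that makes sorbitol, was at 5.65, 5.25 and 6.10 at 24 h and at 6.50, 6.28 and 6.36 at 48 h (change 0.71; limma adjusted p = 0.545). Slc5a3 takes up myo-inositol. It stood at 2.47, 0.90 and 2.78 at 24 h and at 2.94, 2.84 and 3.24 at 48 h, so the second 24 h array was far below all others, and the change of 0.96 had a standard error of 0.43. Without that array it was 0.39. The taurine transporter Slc6a6 changed by 0.13 and Nfat5 itself by 0.093, with arrays that overlapped and a limma adjusted p of 0.985 and 0.987. Both changes have the other sign on the values as deposited (-0.29 and -0.32).

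Some surface and secretory genes had large changes that missed the call. Ly6al, of the Ly6 family of small surface proteins, was at 3.03, 2.29 and 2.04 at 24 h and at 3.92, 4.78 and 3.42 at 48 h (change 1.59; limma adjusted p = 0.283). Lypd2 of the same family changed by 1.40 with a 48 h range from 0.92 to 2.62 (limma adjusted p = 0.185). Rhbg, an ammonium transporter of the collecting duct, changed by 1.00, Muc1, a membrane mucin, by 0.67, and Ptges, a prostaglandin E synthase, by 0.74 (limma adjusted p = 0.185, 0.227 and 0.227). In all 5 the arrays at the 2 times did not overlap, as in 4.95% of all genes in this direction. They were named for the smallest p in their lists, so this separation is a description and no further support. The other picks from these lists by the same rule were Muc15 (change -0.45), Atp6v1c2 (-0.49) and Abcc4 (0.51), without a call.

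The same further day at 300 mOsm gave 37 calls (0.255%), 24 rises (0.165%) and 13 falls (0.0896%). The 9 genes called at both osmolalities are 45.0% of the 20 at 640 mOsm and 24.3% of the 37 at 300 mOsm. Of the 20, 19 were higher at 48 h at 300 mOsm as well, and in 18 of those all 48 h arrays there lay above all 24 h arrays. Gper1 was higher with arrays that overlapped, and Cxcl10 had all 48 h arrays below all 24 h arrays. Over all genes, 1058 (7.29%) had all 48 h arrays above all 24 h arrays at 300 mOsm and 704 (4.85%) had all of them below. Their median change was 1.25 at 640 mOsm, by which they had been chosen, and 0.91 at 300 mOsm, against a median over all genes of 0.05 there. Dcn rose by 1.31 and 1.29, Col1a1 by 1.13 and 1.07 and A2m by 1.65 and 1.49 at 640 and 300 mOsm, and Serpinf1 and Serpine2 by 1.76 and 1.57 at 300 mOsm. Sla was one where the 2 values lay apart, with 1.62 at 640 mOsm and 0.41 at 300 mOsm (difference 1.21 ± 0.28, SE; limma adjusted p = 0.708). The mean level of the fibroblast and pericyte markers at 300 mOsm was -0.75, -0.91 and -0.95 at 24 h and -0.17, -0.29 and -0.26 at 48 h. The arrays of the 2 osmolalities were not independent of each other. At 24 h the residuals of array 1 at 640 mOsm correlated at 0.58 across genes with those of array 3 at 300 mOsm, those of array 2 at 0.84 with array 2, and those of array 3 at 0.83 with array 1. The calls at 300 mOsm are therefore not a separate repeat of those at 640 mOsm.

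**Figure D3:**
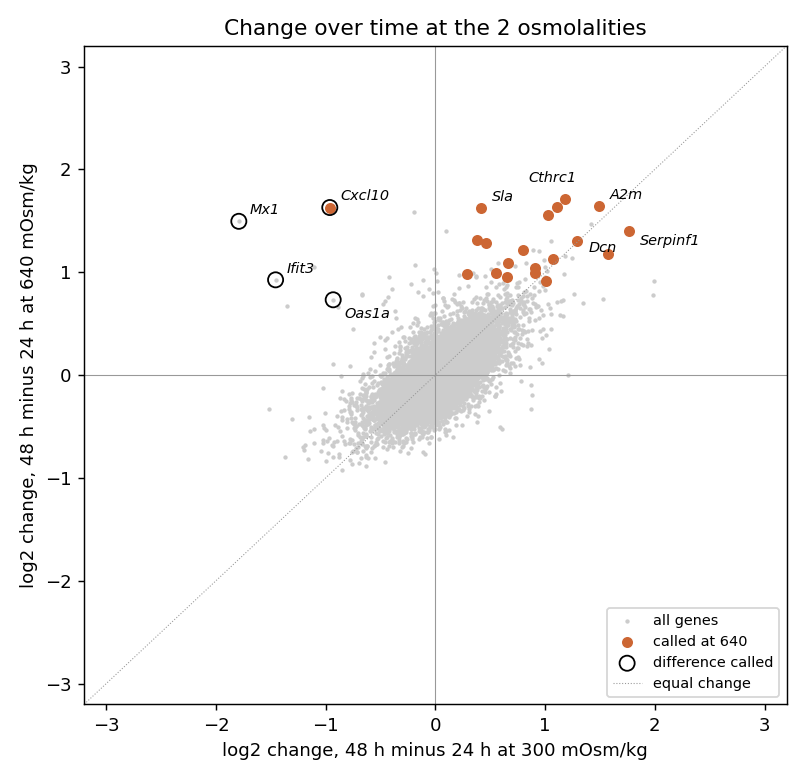
Change from 24 h to 48 h at 300 mOsm (x axis) and at 640 mOsm (y axis) of 14506 genes, both as log2 on centred arrays; orange points are the genes called at 640 mOsm, circles those called for the difference between osmolalities, and the dotted line marks equal change. Of the 20 genes called at 640 mOsm, 19 lie right of 0 on the x axis, and Cxcl10 lies left of it at -0.96.

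The test of the difference itself called 4 genes (0.0276%), all of them interferon-inducible. They stood higher after the further day at 640 mOsm and lower after it at 300 mOsm. Many genes of this kind carry a short sequence, the interferon-stimulated response element, in front of their start. That element was searched as GAAA, any 2 bases and GAAA again, on both strands of the 250 bases before the start of each gene (RefSeq, GRCr8). It was found in 372 (3.11%) of 11968 array genes with a promoter in the table, in 3 of the 4, and in 16 of 24 matched interferon-stimulated genes. Among the 8 of the 20 called genes with a promoter in the table, 1 held it, Cxcl10. The following stretches show it in capitals, in the 3 genes that have it. In Cxcl10 it begins 243 bases before the start (chr14:15988816-15988915, plus strand). In Ifit3 it begins 44 bases before the start and reads on the other strand (chr1:241527226-241527325, plus strand). In Oas1a 2 overlapping matches begin 41 and 35 bases before the start (chr12:41330366-41330465, plus strand). A match is a description of the letters and not a measured binding site.
Cxcl10: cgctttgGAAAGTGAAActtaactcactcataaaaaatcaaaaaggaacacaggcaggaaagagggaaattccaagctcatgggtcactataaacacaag
Ifit3: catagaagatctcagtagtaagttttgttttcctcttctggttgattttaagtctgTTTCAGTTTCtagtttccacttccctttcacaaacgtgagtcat
Oas1a: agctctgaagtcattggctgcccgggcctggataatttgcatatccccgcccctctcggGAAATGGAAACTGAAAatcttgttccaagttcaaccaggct

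Cxcl10, a chemokine that draws activated T cells, was the only one of the 4 also called at 640 mOsm. Its levels there were -0.55, -0.22 and -0.83 at 24 h and 1.02, 1.67 and 0.60 at 48 h, a rise of 1.63 ± 0.27 (SE; limma adjusted p = 0.0363). At 300 mOsm they were -0.76, -0.25 and -0.81 at 24 h and -1.94, -1.22 and -1.54 at 48 h (change -0.96; limma adjusted p = 0.228). At 24 h the arrays of the 2 osmolalities lay over the same range, and at 48 h they were far apart. The 2 changes differed by 2.59 ± 0.38 (SE; limma adjusted p = 0.0333). Without the third 24 h array at 640 mOsm the rise there was 1.48, without a call (limma adjusted p = 0.107).

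Mx1, a GTPase that blocks viruses, had the largest difference, 3.29 ± 0.40 (SE; limma adjusted p = 0.00995). At 640 mOsm it was at 2.29, 0.88 and 1.55 at 24 h and at 3.23, 2.92 and 3.06 at 48 h (2.82-fold; limma adjusted p = 0.0633). At 300 mOsm it fell from 0.60, 0.69 and 1.20 to -1.23, -0.91 and -0.74 (limma adjusted p = 0.0190). Ifit3, which binds with other Ifit proteins to viral RNA, changed by 0.93 at 640 mOsm (limma adjusted p = 0.218) and fell by 1.46 at 300 mOsm (adjusted p = 0.0111). Oas1a, which makes oligoadenylates that activate RNase L, changed by 0.73 at 640 mOsm (limma adjusted p = 0.248) and fell by 0.93 at 300 mOsm (adjusted p = 0.0469). Both differences were called, at 2.38 for Ifit3 and 1.66 for Oas1a (limma adjusted p = 0.0101 and 0.0354).

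Of 31 measured interferon-stimulated genes, 27 were higher at 48 h at 640 mOsm, none of them called, with a median change of 0.25. At 300 mOsm the median was -0.19, and 4 were called as falls, against 0.0896% of all genes. In 26 of the 31 the change at 640 mOsm was above that at 300 mOsm, against 39.9% of all genes, and 3 of these differences were called. The mean level of the list at 640 mOsm was 0.29, -0.15 and 0.04 at 24 h and 0.44, 0.46 and 0.48 at 48 h. At 300 mOsm it was 0.36, 0.36 and 0.46 at 24 h and -0.03, 0.10 and 0.11 at 48 h. The calls rest on few arrays. Without the third 24 h array at 300 mOsm no difference was called. Only 2 were called without the first 48 h or the third 24 h array at 640 mOsm, or without the first 48 h, the third 48 h or the second 24 h array at 300 mOsm. Without both low-median 24 h arrays, the third at 640 mOsm and the first at 300 mOsm, none was. On the values as deposited none was called either. The 4 genes called for the difference were chosen by it on these same arrays, so its sizes below are no further support. Centring takes a constant from each array, so on deposited values all 4 differences shift by the same amount. Without the third 24 h array at 300 mOsm they were 3.10 for Mx1, 2.69 for Cxcl10, 2.38 for Ifit3 and 1.60 for Oas1a. On deposited values they were 3.30, 2.61, 2.40 and 1.68, and without both low-median arrays 3.39, 2.52, 2.35 and 1.66. Over all fits without 1 array Mx1 ran from 2.94 to 3.64 and Cxcl10 from 2.30 to 2.84. Ifit3 ran from 2.20 to 2.64 and Oas1a from 1.54 to 1.78. With array weights the differences were 2.925 for Mx1, 2.477 for Cxcl10, 1.858 for Ifit3 and 1.576 for Oas1a.

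**Figure D4:**
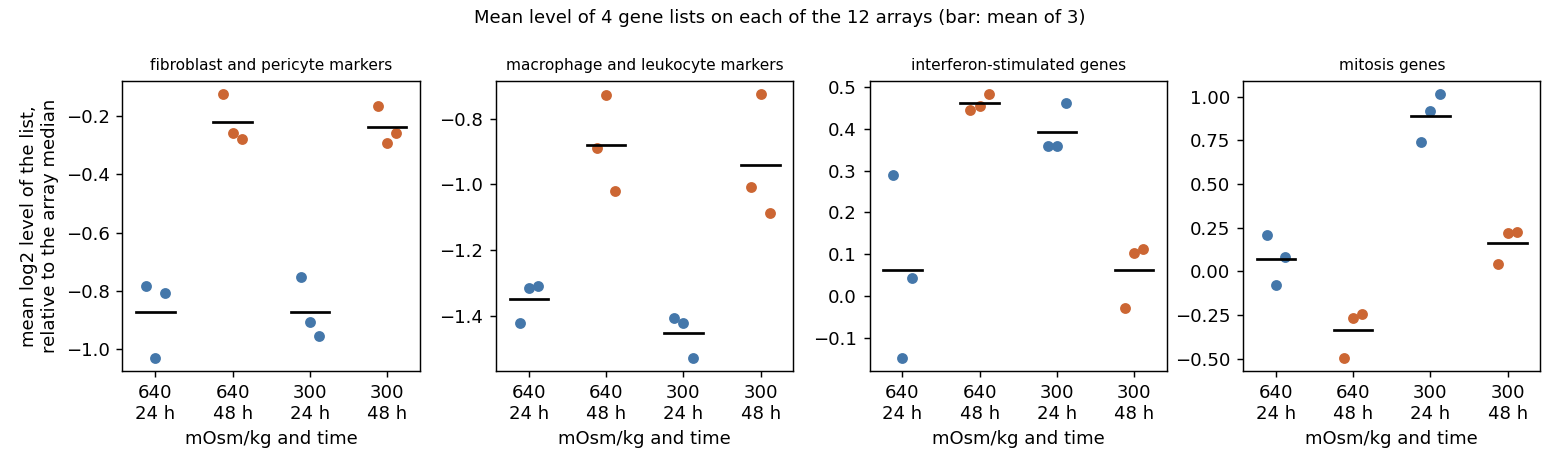
Mean level of 4 gene lists on each of the 12 arrays, as log2 relative to the array's median gene, by osmolality and time; each point is an array (blue for 24 h, orange for 48 h), the bar is the mean of 3, and each panel has its own y axis. The fibroblast and macrophage lists stand higher at 48 h and the mitosis list lower at 48 h at both osmolalities, while the interferon list runs from -0.15 to 0.29 at 24 h and from 0.44 to 0.48 at 48 h at 640 mOsm and goes the other way at 300 mOsm.

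Mitosis genes also stood lower at 48 h at 300 mOsm, with a median change of -0.73, beside -0.38 at 640 mOsm. Of the 22, 2 were called as falls at 300 mOsm, against 0.0896% of all genes. In all 22 the change at 640 mOsm was above that at 300 mOsm, against 39.9% of all genes, and none of these differences was called. Of the 18 mitosis genes with a promoter in the table, 13 held the letters CCAAT on either strand of the 250 bases before the start, against 35.6% of all array genes. Each of the other motifs searched was in 0 or 1 of these 18.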

How the data were processed

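Total RNA of the 6 samples at 640 mOsm, and of 6 samples at 300 mOsm measured beside them, was hybridised to Affymetrix Rat Gene 1.0 ST arrays. The authors deposited log2 values per probe set, made with RMA in Affymetrix Power Tools per the submitters' processing notes; tool versions were not given in those notes. Background levels of single probes were not analysed here.

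Probe sets were named through the platform's gene table. Of 27596 probe sets, 15310 had 1 symbol, 323 had several and 11963 were not listed. The probe set with the highest mean was kept per gene, which left 14506 genes. Of the named probe sets, 15279 matched RefSeq by Entrez identifier and 31 did not. Centring arrays on their median removes a shift common to all genes, so a change shared by most genes cannot be seen.

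Genes were tested with limma 3.58.1 in R 4.3.3 (lmFit, eBayes) with 1 mean for each of 4 groups over 12 arrays and 8 residual degrees of freedom, with p-values adjusted by Benjamini-Hochberg over all genes. The fit takes the arrays as independent. It was tested on simulated data whose arrays were independent, so that test does not cover the correlation between arrays described above. Named genes were the 15 largest called changes with separate arrays, up to 4 called or 2 uncalled members of each list by smallest p, 8 set collecting duct genes, and the 5 largest called differences between osmolalities in each direction. Gper1 and Kcnj8, which complete the 20 called, and genes said to be so in the text were chosen after their values were seen. The members and lists were chosen with earlier results of these data known.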

Additional observations from a re-analysis of the deposited data

Results flagged for a closer look

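The 4 interferon-inducible genes that follow changed differently over the further day at the 2 osmolalities by the test of the difference itself (limma over 12 arrays, Benjamini-Hochberg adjusted over 14506 genes). The change at 640 mOsm minus that at 300 mOsm was 3.29 for Mx1 (adjusted p = 0.00995), 2.59 for Cxcl10 (adjusted p = 0.0333), 2.38 for Ifit3 (adjusted p = 0.0101) and 1.66 for Oas1a (adjusted p = 0.0354). In each of the 4 all 48 h arrays lay above all 24 h arrays at 640 mOsm and below them at 300 mOsm. Over all genes 4.95% lay above in this way at 640 mOsm and 4.85% below at 300 mOsm. The 4 were chosen by this difference on the same arrays, so their separation is a description and no further support.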

How the results depend on the processing

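The 20 calls at 640 mOsm became 0 on deposited values and 986 (485 rises, 501 falls) with array weights, where the first 24 h array at 640 mOsm weighed 5.46 and the second 0.35; the cause was not tested. With the replicate number as a block 35 were called, all rises. That block joins same-numbered arrays of both osmolalities. Their residuals correlated at -0.125, 0.844 and -0.206 at 24 h and at -0.231, 0.795 and -0.222 at 48 h. Numbers 1 and 3 thus join unlike arrays, and counts with the block carry little weight. The numbers were not taken as pairs: residuals of same-numbered arrays at 640 mOsm correlated at 0.03, 0.46 and 0.36, and 2 of 3 arrays correlated best with their own number. Leaving out 1 of the 6 arrays gave 6 to 15 calls, with 6 to 12 of the 20 among them. Without both low-median arrays, chosen after seeing the data, 34 were called, 4 of them falls. Loess, quantile, other centring, filters, and probe set rules gave 19 to 22, and the 6 arrays alone 17. The arrays of the 20 genes did not overlap between times, so leaving out 1 array could only leave a positive change. The 4 differences between osmolalities became 0 on deposited values, 2 with cyclic loess, quantile, centring on all probe sets or every probe set, 10 with array weights, 6 with the replicate block, 0 to 4 without 1 array, and 0 without both low-median arrays. On deposited values, where the median gene changed by -0.42, list medians were -0.18 for principal cell, -0.79 for mitosis, -0.62 for S phase, 0.034 for matrix, -0.17 for interferon, 0.31 for fibroblast and 0.093 for macrophage genes. Without the third 24 h array the fibroblast median was 0.87 and the interferon median 0.41. Slc6a6 reversed on deposited values (-0.29) and with array weights (-0.17), and ran from -0.15 without the second 24 h array to 0.30 without the first. Nfat5 reversed on deposited values (-0.32) and ran from -0.059 without the second to 0.21 without the third. Slc14a2 was 0.036 on deposited values and 0.019 with array weights. Signal over background was not known, so dim genes have no lower limit.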

Other observations

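Several metabolic lists stood slightly to one side after the further day at 640 mOsm, with no member called (limma, Benjamini-Hochberg). Of 24 lysosome and autophagy genes 21 were higher at 48 h, with a median change of 0.17. Ctsd, the protease cathepsin D, changed by 0.47 (limma adjusted p = 0.545). Of 21 glycolysis genes 18 were higher, with a median of 0.16, and Pfkfb3, which raises glycolytic flux, changed by 0.47 (limma adjusted p = 0.583). Of 23 oxidative phosphorylation genes 19 were higher, with a median of 0.20. Of 22 ribosome biogenesis genes 4 were higher, with a median of -0.19, and Gnl3, a nucleolar GTPase, changed by -0.54 (limma adjusted p = 0.495).

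When every probe set was tested, 22 were called (18 rises, 4 falls), and the falls were in probe sets that the gene table does not list. Probe set 10727806 had levels of -0.22, -0.19 and -0.53 at 24 h and of -2.43, -2.59 and -2.85 at 48 h, a change of -2.31 (limma adjusted p = 0.00041). At 300 mOsm it changed by -2.14 (limma adjusted p = 0.000644). Probe set 10830962 changed by -2.25 at 640 mOsm and by -2.17 at 300 mOsm, and another probe set carried identical values on every array. Unlisted probe sets 10772784 and 10772788 rose by 1.52 and 1.61 at 640 mOsm.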
